A study of Callithrix jacchus with 6 samples.

Results

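AGBL3, AGBL4 and AGTPBP1 encode enzymes that remove glutamates from the tails of tubulin. They were taken by symbol from the 29320 genes of the deposited count matrices, so the members are 3 of 29320 genes, and all 3 were found. They were chosen from results of the comparison of oxygen with sevoflurane in these same libraries. Their own values in that comparison are therefore given as a description, and nothing is supported with them. RNA was counted cell by cell in hippocampi of aged common marmosets (Callithrix jacchus), with 10x Genomics 3' chemistry on collagenase-digested, cryopreserved suspensions. The control group was given oxygen for 6 h (3 libraries), and the other group was given sevoflurane, an inhaled anaesthetic, for 6 h (3 libraries). No allele or other agent is named for either group. The labels do not say that the 3 libraries of a group came from separate animals, so p-values measure only the spread between these samples, which may be technical.

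Tubulin tails carry chains of glutamate that are added after the protein is made. Glutamylases of the TTLL family add them, and cytosolic carboxypeptidases, the family of AGTPBP1 and AGBL1 to AGBL5, take them off again. The length of the chains tunes the binding of motors, severing enzymes and microtubule-associated proteins. Loss of AGTPBP1 in mice lets glutamate chains build up and leads to the death of Purkinje cells. AGBL4 shortens long chains, AGBL5 removes the glutamate at the branch point, and AGBL2 and AGBL3 shorten acidic protein tails. Axons and motile cilia are known for heavily modified tubulin. The symbol does not by itself tell where an enzyme acts, and these counts measure RNA only.

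The 6 libraries held 41164947 to 47886816 unique molecular identifiers (UMIs, counted RNA molecules) in 7103 to 8577 barcodes. After removal of 2238 likely doublets, 44344 cells were kept, and 261 barcode sequences occurred in more than 1 library, at most in 3. Of 34 clusters, 26 were named as 13 cell classes from marker genes, and 2724 cells in 8 clusters stayed unnamed. Sevoflurane replicate 3 differed from the other libraries in its neurons. It contained 0, 1, 6, 2 and 0 cells of glutamatergic clusters 8, 6, 12, 18 and 19, but 1147 of the 1439 cells of cluster 22 and 1130 of the 1260 cells of cluster 23. It also held 1019 of the 1100 cells of oligodendrocyte cluster 26. FKBP5, a gene induced by glucocorticoids, stood at 421, 429 and 379 CPM in microglia-like cells of the oxygen libraries. After sevoflurane it stood there at 1771, 1763 and 2231 CPM (log2 2.25 ± 0.18, edgeR adjusted p = 0.000825). It had rank 1 by p among the 7609 genes tested in these cells, of which edgeR called 0.105%. Its values come from the same comparison, so they are no separate check of the treatment labels. In glutamatergic neuron-like cells its groups overlapped (log2 -0.04 ± 0.41). CPM is the UMI count of a gene per 1000000 UMIs of its class in a library, and an error after ± is a standard deviation (SD) over libraries for a level and a standard error for a log2 fold change.

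AGBL4 was most abundant in ependymal-like cells, the ciliated lining of the ventricles. Its level there was 3997 ± 192 CPM over the 5 libraries with at least 20 such cells, between 3808 and 4264. Glutamatergic neuron-like cells followed at 2057 ± 381 CPM (SD, n = 6), and their highest library, at 2705, lay below the lowest ependymal value. GABAergic neuron-like cells had 1218 ± 84.6 CPM, below the glutamatergic level in 6 of 6 libraries. Pericyte or smooth muscle-like cells had 841 ± 164 CPM (n = 4) and fibroblast-like cells 556 ± 130 CPM (n = 5). Astrocyte-like cells (579 ± 72.4 CPM) and cells like oligodendrocyte precursors (OPC-like, 576 ± 138 CPM) were close to the fibroblast-like level and did not differ beyond their spread. Microglia-like (329 ± 183 CPM), endothelial-like (328 ± 124 CPM) and oligodendrocyte-like cells (310 ± 131 CPM) were lowest and could not be ordered among themselves. Choroid plexus epithelium-like cells, 504 of 522 from the sevoflurane replicate 1 library, had 2491 CPM when pooled (95% Poisson interval 2417 to 2567, which covers counting error only).

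Within the glutamatergic neurons, AGBL4 varied between clusters. Pooled over libraries, it ranged from 1392 CPM in cluster 6, with CPNE4 and SHISA6 among its 10 leading genes, and 1501 CPM in cluster 8, with PROX1 among them, to 2812 CPM in cluster 11 and 3170 CPM in cluster 23, led by RORB. The other 5 glutamatergic clusters lay between 2283 and 2431 CPM. The sevoflurane replicate 3 library, which lacked clusters 6 and 8, had the highest glutamatergic value.

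AGTPBP1 had another order of classes. It was highest in oligodendrocyte-like cells, the myelin-forming cells, at 532 ± 97.5 CPM (SD, n = 6), above GABAergic neuron-like cells in 6 of 6 libraries. GABAergic neuron-like (252 ± 17.0 CPM) and endothelial-like cells (250 ± 69.3 CPM) did not differ beyond their spread. Glutamatergic neuron-like cells had 188 ± 33.1 CPM, microglia-like cells 136 ± 30.7 CPM and OPC-like cells 132 ± 12.7 CPM. Astrocyte-like cells had 101 ± 16.8 CPM, below OPC-like cells in 6 of 6 libraries. Ependymal-like cells, where AGBL4 was highest, had 82.4 ± 20.8 CPM of AGTPBP1 (n = 5). Pericyte or smooth muscle-like cells had 251 ± 17.3 CPM (n = 4) and fibroblast-like cells 154 ± 35.1 CPM (n = 5).

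AGBL3 was sparse in every class. Over all 6 libraries its mean was 38.7 ± 24.3 CPM in GABAergic neuron-like, 35.7 ± 10.6 CPM in astrocyte-like and 24.9 ± 18.5 CPM in glutamatergic neuron-like cells. Oligodendrocyte-like cells had 18.9 ± 8.33 CPM, OPC-like cells 13.9 ± 4.01 CPM, microglia-like cells 12.6 ± 5.65 CPM and endothelial-like cells 11.5 ± 6.22 CPM. No neighbours in this order differed beyond the larger of their SDs, and the spread includes both treatment groups. In the oxygen libraries alone, astrocyte-like cells stood at 29.6 ± 8.31 CPM and glutamatergic neuron-like cells at 9.64 ± 2.50 CPM (n = 3 each). Ependymal-like cells had 42.8 ± 17.9 CPM (n = 5), pericyte or smooth muscle-like cells 40.4 ± 51.5 CPM (n = 4) and fibroblast-like cells 14.8 ± 11.6 CPM (n = 5).

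**Figure D1:**
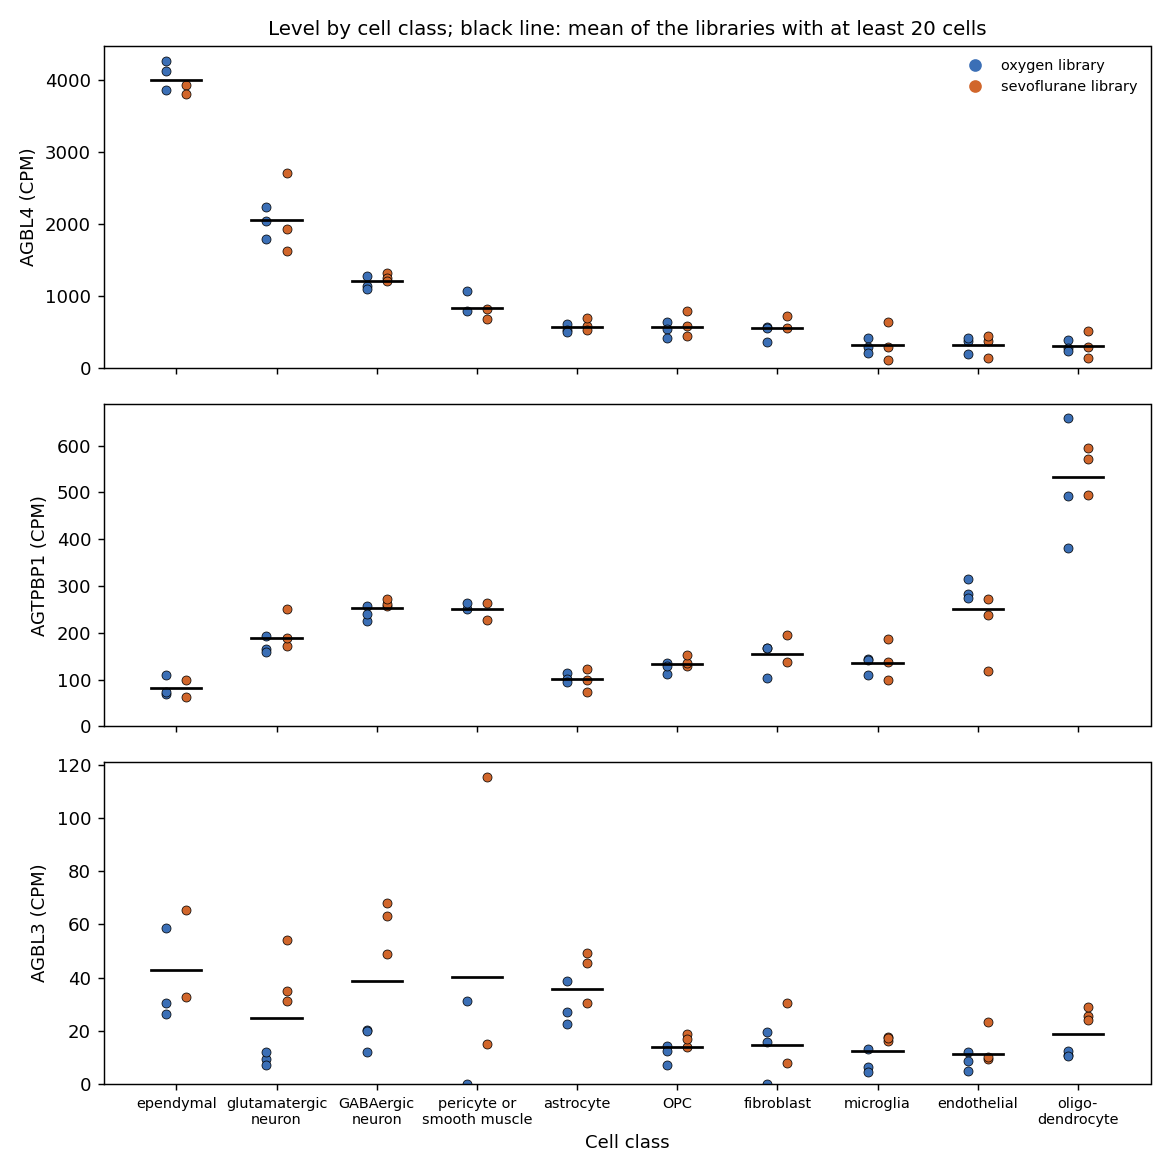
Level in CPM of AGBL4 (top), AGTPBP1 (middle) and AGBL3 (bottom) in 10 cell classes. Each point is a library with at least 20 cells of the class, blue for oxygen and orange for sevoflurane, and the black line is the mean of those libraries. AGBL4 peaks in ependymal-like cells at 3997 CPM, AGTPBP1 in oligodendrocyte-like cells at 532 CPM, and the points of AGBL3 separate by colour in both neuron classes.

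Neuronal RNA was counted in the other classes too. In oligodendrocyte-like cells the glutamatergic markers SLC17A7, SV2B and CAMK2A, a vesicular transporter, a synaptic vesicle protein and a kinase, stood at 53.6% to 124%, 12.3% to 23.7% and 8.29% to 13.2% of their glutamatergic level over the 6 libraries. In microglia-like cells these ranges were 48.3% to 130%, 8.58% to 24.4% and 9.71% to 21.9%. In astrocyte-like cells SLC17A7 stood at 32.2% to 76.9% and CAMK2A at 7.24% to 9.10%, so the markers differed from each other. AGBL4 stood at 8.68% to 19.1% of its glutamatergic level in oligodendrocyte-like cells, 7.17% to 23.6% in microglia-like and 25.9% to 32.5% in astrocyte-like cells. In astrocyte-like, oligodendrocyte-like, OPC-like, microglia-like and endothelial-like cells alike, the AGBL4 share was below that of SLC17A7 in 6 of 6 libraries. It was above that of CAMK2A in 5 of 6 libraries in oligodendrocyte-like cells and in 3 of 6 in microglia-like cells, so the markers did not give 1 answer. The part of neuronal RNA in these AGBL4 levels was not tested. AGTPBP1 in oligodendrocyte-like cells was at 198% to 399% of its glutamatergic level, above the share of every marker named here.

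Genes with a class pattern like that of each member were ranked by the correlation of mean log2(CPM + 1) over the 7 classes with at least 20 cells in every library, among 10594 genes. The 5 most like AGBL3 were FSD2 (Pearson r = 0.982), BAD (0.970), CCDC136 (0.965), TRPC7 (0.964) and PLBD2 (0.962). AGBL4 was followed by FAM185A (0.989), BSN (0.987), KIAA1549L (0.986), MEST (0.984) and NUMBL (0.982). AGTPBP1 was followed by KDM4C (0.976), FSD1L (0.961), GRB14 (0.958), EXOC6B (0.958) and ANKIB1 (0.952). The points share libraries and depth, and with 7 classes the gene ranked 100th still reached 0.859, 0.919 and 0.831 for AGBL3, AGBL4 and AGTPBP1. Between the members r was 0.56 for AGBL3 with AGBL4, -0.10 for AGBL3 with AGTPBP1 and -0.17 for AGBL4 with AGTPBP1.

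The treatment groups were compared within classes on UMI counts summed per library with edgeR's quasi-likelihood test, adjusted over all genes of a class. In GABAergic neuron-like cells AGBL3 (ENSCJAG00000012370) stood at 20.3, 20.1 and 11.98 CPM in the oxygen libraries (replicates 1 to 3), from 94, 105 and 55 UMIs. It stood at 48.8, 68.0 and 63.1 CPM in the sevoflurane libraries, from 182, 212 and 346 UMIs. The lowest sevoflurane library was above the highest oxygen library, as it was for 12.8% of the genes tested there. The fitted change was 3.26-fold (log2 1.71 ± 0.22, adjusted p = 0.0460), in a class where 0.114% of 13106 genes were called. This comparison chose the gene, so the call is a description. Without sevoflurane replicate 3 the log2 value was 1.66 (edgeR adjusted p = 0.0389), and leaving out any other library took the adjusted p to between 0.0699 and 0.251.

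In glutamatergic neuron-like cells AGBL3 stood at 9.39, 12.3 and 7.27 CPM under oxygen and at 34.9, 31.2 and 54.2 CPM under sevoflurane. All sevoflurane values were above all oxygen values, again as for 12.8% of genes in the class. The change was 3.85-fold (log2 1.95 ± 0.29), and with an adjusted p of 0.365 it was not called by edgeR, which called 0.00575% of 17380 genes here. Different clusters hold most of this class in different libraries: cluster 8 held 3062 of the 3841 cells of sevoflurane replicate 2, and clusters 22 and 23 most of the 2683 cells of sevoflurane replicate 3. Without sevoflurane replicate 3 the log2 value was 1.68 (edgeR adjusted p = 0.152). DESeq2 called the gene at an adjusted p of 2.86e-06, and called 185 of 26246 genes here against 1 by edgeR. This comparison chose the gene, so the DESeq2 call is a description.

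Glutamatergic cluster 11, led by DPP10, HS3ST4 and KIAA1217, had at least 95 cells in every library and was compared alone. AGBL3 stood there at 7.49, 10.5 and 16.6 CPM under oxygen and at 65.0, 59.4 and 37.4 CPM under sevoflurane. The groups did not overlap, which 14.1% of the genes showed in this direction. The change was 4.58-fold (log2 2.19 ± 0.33, adjusted p = 0.0266), where 0.951% of 9988 genes were called. Without sevoflurane replicate 3 the log2 value was 2.46 (edgeR adjusted p = 0.00532), and leaving out any other library took the adjusted p to between 0.0574 and 0.121.

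**Figure D2:**
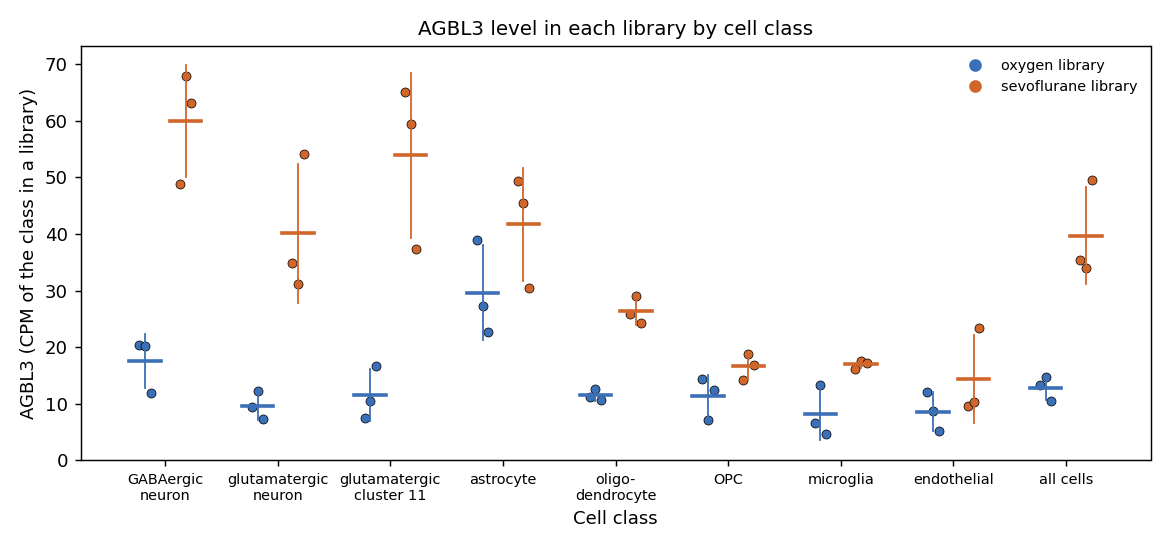
AGBL3 level in CPM in each library by cell class. Points are libraries (blue oxygen, orange sevoflurane), horizontal lines are group means and vertical lines SDs over 3 libraries. The sevoflurane libraries lie above the oxygen libraries in both neuron classes, cluster 11, oligodendrocyte-like cells, microglia-like cells and all cells, and the groups overlap in the other 3 classes.

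The same order was seen in most neuron clusters. Only libraries with at least 20 cells of a cluster were used. In 11 neuron clusters at least 2 libraries of each group could be used. Every sevoflurane library used was above every oxygen library used in 10 of them. Sevoflurane replicate 3 had 1, 0, 6, 12, 2 and 0 cells of clusters 6, 8, 12, 15, 18 and 19 and was left out there. Among all pairs of a gene of at least 10 CPM and such a cluster, this held for 16.3%. The ratio of the group means ran from 1.00 in cluster 19, where the groups overlapped, to 6.14 in cluster 15, with a median of 3.43. The cluster means spanned 8.54 to 19.0 CPM under oxygen and 10.6 to 79.9 CPM under sevoflurane. Without sevoflurane replicate 3 the count was again 10 of 11. Leaving out a library cannot lower such a count, so nothing is read from this. The share over all pairs was not computed without that library, and such an order is easier to reach with fewer libraries. The clusters come from the same libraries, so they are not separate repeats. For AGBL4 such an order was seen in 1 of the 11 clusters and for AGTPBP1 in 4, and without sevoflurane replicate 3 in 3 and 4.

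**Figure D3:**
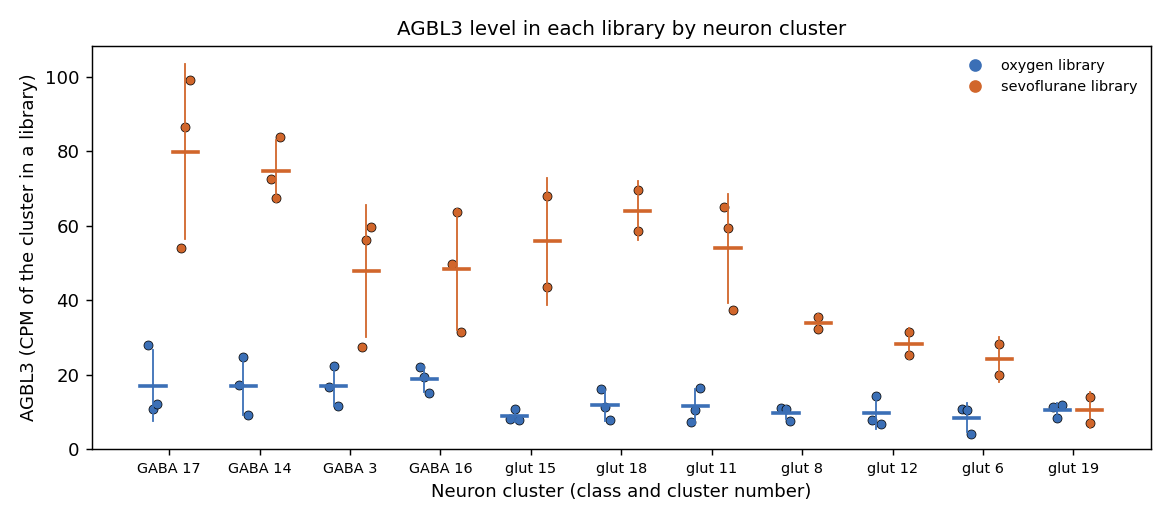
AGBL3 level in CPM by neuron cluster, for the 4 GABAergic and 7 glutamatergic clusters with at least 20 cells in at least 2 libraries of each group. Points are libraries with at least 20 cells of the cluster, horizontal lines group means and vertical lines SDs. Orange (sevoflurane) lies above blue (oxygen) in every cluster but cluster 19.

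Outside neurons AGBL3 was also higher after sevoflurane in some classes. In oligodendrocyte-like cells it stood at 11.2, 12.6 and 10.6 CPM under oxygen and at 25.8, 29.0 and 24.3 CPM under sevoflurane, without overlap (8.06% of genes in this direction). The change was 2.25-fold (log2 1.17 ± 0.19, adjusted p = 0.205), in a class where 0.0171% of 11680 genes were called. Without sevoflurane replicate 3 the log2 values were 1.19 in these cells and 1.37 in all cells. SLC17A7 stood at 178, 141 and 222 CPM under oxygen and at 277, 289 and 102 CPM under sevoflurane in oligodendrocyte-like cells. CAMK2A stood there at 49.3, 48.9 and 62.8 CPM against 55.1, 31.5 and 51.5 CPM. The groups overlapped for both markers. As a share of its own glutamatergic level, AGBL3 in the sevoflurane libraries stood at 74.0%, 93.1% and 44.8% in oligodendrocyte-like cells, where SLC17A7 stood at 124%, 107% and 53.6%. In microglia-like cells AGBL3 stood at 46.3%, 56.5% and 31.9% and SLC17A7 at 130%, 102% and 48.3%. AGBL3 was thus below SLC17A7 in all 3 sevoflurane libraries of both classes. It was above the other 2 markers in all 3. In oligodendrocyte-like cells CAMK2A stood at 11.6%, 8.29% and 12.3% and SV2B at 15.5%, 12.3% and 17.3%. In microglia-like cells CAMK2A stood at 14.4%, 10.4% and 17.2% and SV2B at 20.4%, 8.58% and 24.4%. The markers did not give 1 answer, and the part of neuronal RNA in the AGBL3 result was not tested. In microglia-like cells AGBL3 stood at 6.54, 13.3 and 4.68 CPM, from 3, 8 and 3 UMIs, against 16.2, 17.6 and 17.3 CPM, from 13, 8 and 6 UMIs. The groups did not overlap (5.01% of genes), but the gene did not pass the filter on low counts there, in a class where 0.105% of genes were called.

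In astrocyte-like cells the groups overlapped, at 38.9, 27.3 and 22.7 CPM under oxygen and 49.3, 45.5 and 30.4 CPM under sevoflurane (log2 0.51 ± 0.26, adjusted p = 0.785; 0.0180% of genes called). The level under oxygen in these cells was above that of neurons, and the highest oxygen library exceeded the lowest sevoflurane library. In OPC-like cells AGBL3 stood at 14.3, 7.12 and 12.5 CPM against 14.2, 18.7 and 16.9 CPM (log2 0.52 ± 0.36, adjusted p = 0.914; 0.0330% called). Endothelial-like cells had 11.99, 8.69 and 5.16 CPM against 9.64, 10.2 and 23.3 CPM, and AGBL3 was not tested in them. In ependymal-like cells the oxygen libraries had 58.6, 26.5 and 30.5 CPM, and sevoflurane replicates 1 and 2 had 65.5 and 32.6 CPM, again overlapping. Glutamatergic neuron-like cells made up 33.4% to 41.9% of the oxygen and 38.5% to 55.0% of the sevoflurane libraries, and the part of such shares in the sum over all cells was not tested. Over all kept cells the values were 13.4, 14.8 and 10.4 CPM against 35.5, 34.0 and 49.5 CPM, without overlap (11.7% of genes), with log2 1.57 ± 0.21. The adjusted p there was 0.263, and edgeR called 0% of 19236 genes, with 1942 at an unadjusted p under 0.05, while DESeq2 called 409.

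Whether the response of AGBL3 differed between classes was tested with limma on differences of log2 CPM within libraries. The log2 response of astrocyte-like minus glutamatergic neuron-like cells was -1.45 ± 0.40 (unadjusted p = 0.00716), and that of OPC-like minus glutamatergic neuron-like cells -1.44 ± 0.40 (unadjusted p = 0.007). GABAergic neuron-like minus astrocyte-like cells gave 1.23 ± 0.28 (unadjusted p = 0.00248) and GABAergic neuron-like minus OPC-like cells 1.22 ± 0.32 (unadjusted p = 0.00492). Of 10 pairs of classes none passed adjustment over all genes, and the lowest adjusted p was 0.456. The neuron and astrocyte responses are therefore given side by side and not called different.

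The share of cells with at least 1 AGBL3 UMI was compared after thinning every cell to 1000 UMIs, since neurons are sequenced more deeply than glia. In glutamatergic neuron-like cells it was 1.09%, 1.44% and 0.646% under oxygen and 4.19%, 3.23% and 5.15% under sevoflurane. Exact Clopper-Pearson 95% intervals, for counting error only, spanned 0.377% to 2.02% and 2.70% to 6.06%, so those of the 2 groups stayed apart. In GABAergic neuron-like cells the shares were 2.60%, 1.99% and 1.27% against 5.09%, 7.27% and 6.10%. In oligodendrocyte-like cells they were 1.24%, 1.31% and 1.19% against 2.89%, 2.86% and 2.27%. Endothelial-like cells had 0.787%, 0.935% and 0.541% against 0.962%, 1.92% and 2.72%. Their mean AGBL3 level was the lowest, though not separable from microglia-like cells. Their median depths were 2115 to 3130 UMIs against 5964 to 9494 in glutamatergic neurons. The oxygen shares of glutamatergic neuron-like and oligodendrocyte-like cells lay close to these endothelial shares. In sevoflurane replicate 3 the oligodendrocyte share (2.27%) lay below the endothelial share (2.72%, from at most 150 cells). It is not read as above the endothelial share there. By CPM the 2 classes were alike in that library, at 24.3 and 23.3, the latter from 12 UMIs. Whether the endothelial share is background was not tested. Without thinning the glutamatergic means were 7.53% and 23.1%.

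AGBL4 and AGTPBP1 were not called in any of the 9 comparisons. AGBL4 (ENSCJAG00000021283) in glutamatergic neuron-like cells stood at 2239, 2049 and 1791 CPM under oxygen and at 1932, 1626 and 2705 CPM under sevoflurane (log2 -0.06 ± 0.22). The sevoflurane group held both the lowest and the highest library. In GABAergic neuron-like cells it stood at 1141, 1282 and 1098 CPM against 1318, 1253 and 1216 CPM (log2 0.04 ± 0.10). In cluster 11 the log2 value was -0.21 ± 0.15, and over the 9 comparisons the adjusted p of AGBL4 was 0.614 to 0.999. In oligodendrocyte-like cells the values were 398, 279 and 234 CPM against 291, 141 and 517 CPM, in microglia-like cells 423, 291 and 206 CPM against 299, 117 and 639 CPM. In both, as in glutamatergic neuron-like cells, sevoflurane replicate 2 was lowest and sevoflurane replicate 3 highest.

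AGTPBP1 (ENSCJAG00000014822) in oligodendrocyte-like cells, its main class, stood at 381, 659 and 492 CPM under oxygen and at 594, 494 and 572 CPM under sevoflurane (log2 0.10 ± 0.19). The oxygen libraries enclosed the sevoflurane libraries. In GABAergic neuron-like cells the groups did not overlap, at 226, 257 and 240 CPM against 257, 262 and 273 CPM, as for 12.8% of genes in this direction, and the change was small (log2 0.07 ± 0.09, adjusted p = 0.827). In endothelial-like cells all sevoflurane libraries were lower, at 238, 118 and 272 CPM against 314, 284 and 275 CPM, as for 7.17% of genes (log2 -0.40 ± 0.29, adjusted p = 0.999). No gene was called there by edgeR (0% of 6596, with 297 at an unadjusted p under 0.05, and 4 called by DESeq2). The adjusted p of AGTPBP1 was 0.623 to 0.999 over the 9 comparisons. The standard error reached 0.47 on the log2 scale for AGBL4 in microglia-like cells, so differences of that size and larger ones could go uncalled there.

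**Figure D4:**
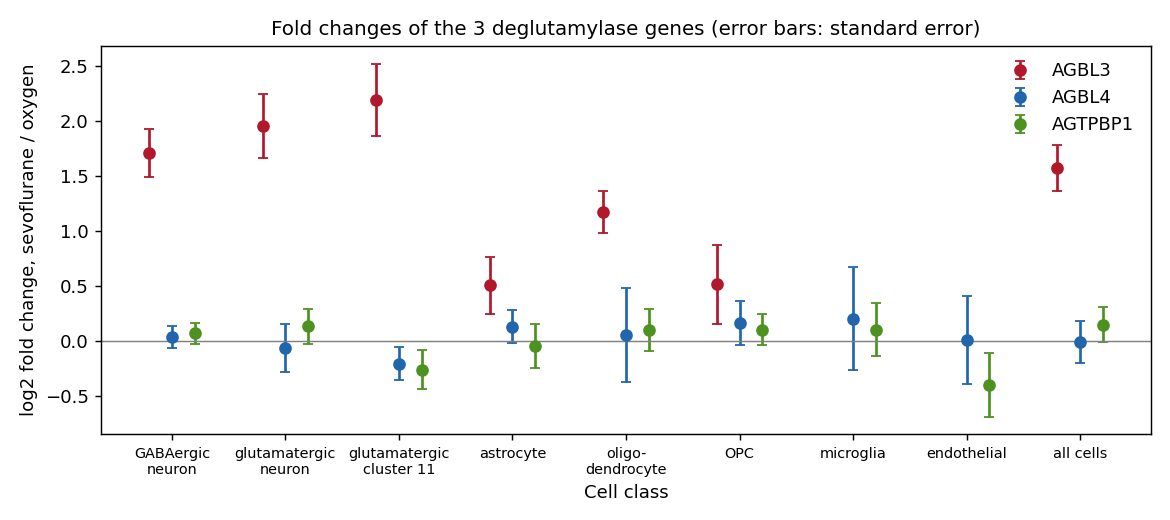
Log2 fold change of sevoflurane over oxygen for AGBL3, AGBL4 and AGTPBP1 in each cell class and in all cells, by edgeR, with standard errors as bars. AGBL3 lies between 0.51 and 2.19 where it was tested, and AGBL4 and AGTPBP1 lie between -0.40 and 0.21.

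The other 3 deglutamylases were measured at low levels and none of them was called where it was tested. None of the 3 was tested in endothelial-like cells. AGBL1 and AGBL5 were not tested in microglia-like cells either, nor AGBL1 in OPC-like cells. AGBL2 was highest in ependymal-like cells, at 128 ± 32.6 CPM (n = 5), followed by microglia-like cells at a mean of 33.6 CPM (18.6 to 48.4 over 6 libraries). AGBL5 also had its highest mean in ependymal-like cells, at 24.3 ± 3.40 CPM, followed by fibroblast-like cells at a mean of 19.4 CPM. AGBL1 was highest in fibroblast-like (60.1 ± 44.2 CPM, n = 5) and ependymal-like cells (48.7 ± 39.9 CPM, n = 5), where its spread was wide. It stood at 36.4 ± 7.29 CPM in GABAergic neuron-like cells, above glutamatergic neuron-like cells (18.2 ± 4.73 CPM) in 6 of 6 libraries. In glutamatergic neuron-like cells AGBL1 was at 18.7, 25.5 and 21.3 CPM under oxygen and at 15.4, 12.2 and 16.3 CPM under sevoflurane, with all sevoflurane libraries lower, as for 4.10% of genes (log2 -0.69 ± 0.19, adjusted p = 0.535). Its direction was opposite to that of AGBL3 in the same cells, and it did not pass. AGBL2 and AGBL5 had log2 values of -0.02 ± 0.15 and -0.28 ± 0.25 there.

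Besides the 3 members, 52 genes of the tubulin code were listed by role, with AGBL1, AGBL2 and AGBL5 among them. Of these, 26 to 51 were tested in a class. None was called by edgeR in any of the 9 comparisons, where it called 0% to 0.951% of all genes. At an unadjusted p under 0.05 by edgeR there were 0 to 9. In all cells these were 9 of 51, beside 1942 of 19236 genes overall. In GABAergic neuron-like cells they were 6 of 47, beside 1490 of 13106, and in OPC-like cells 0 of 41, beside 574 of 9088. DESeq2 called 1, KATNAL2, a katanin-like severing protein, in all cells (log2 -1.18 ± 0.36, adjusted p = 0.0492), where it called 409 of 27062 genes. KATNAL2 was mostly ependymal, at 210 ± 63.1 CPM against 8.24 ± 3.29 CPM in glutamatergic neuron-like cells. Ependymal-like cells made up 2.75%, 5.38% and 6.08% of the oxygen libraries and 0.966%, 1.33% and 0.150% of the sevoflurane libraries, and the part of these shares in the result was not tested. The median log2 fold change of the listed genes tested was -0.05 in GABAergic and -0.12 in glutamatergic neuron-like cells, beside 0.00 and 0.02 over all genes.

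Of the glutamylases, which add what AGBL3 removes, 7 were tested in GABAergic and 8 in glutamatergic neuron-like cells, and none was called by edgeR. TTLL11 was highest in oligodendrocyte-like cells, at 1511 ± 131 CPM, against 411 ± 45.5 CPM in GABAergic neuron-like cells, and TTLL7 followed the same order (1030 ± 89.8 and 300 ± 23.3 CPM). AGTPBP1 also had its highest mean in oligodendrocyte-like and its second highest in GABAergic neuron-like cells. The order further down differed. Endothelial-like cells had less TTLL11 and TTLL7 than glutamatergic neuron-like cells, but a higher mean of AGTPBP1, within its spread. TTLL9, a glutamylase of cilia, was highest in ependymal-like cells at 440 ± 43.6 CPM. TTLL7 and TTLL9 were named after their values were seen. The lowest p of the listed genes in GABAergic neuron-like cells was that of TTLL4 (53.4 against 77.3 CPM, log2 0.47 ± 0.10, adjusted p = 0.132), a gene named after its values were seen. TTLL11 stood there at log2 0.19 ± 0.10.

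In the remaining roles edgeR made no call with the low-count filter. CSTPP1, a subunit of the TTLL1 polyglutamylase complex, was highest in ependymal-like cells (443 ± 14.8 CPM), as was MATCAP2 of the detyrosinase list (44.8 ± 5.19 CPM). TTL, which adds tyrosine back to tubulin, and the dendritic protein MAP2 were highest in OPC-like cells (49.7 ± 10.8 and 1097 ± 81.9 CPM). The glycylase TTLL3 and the tubulin TUBB2A had their highest means in microglia-like cells (126 ± 13.2 and 191 ± 96.7 CPM). The next classes lay within that spread. They were pericyte or smooth muscle-like cells for TTLL3 (122 CPM) and oligodendrocyte-like cells for TUBB2A (184 CPM). The deacetylase SIRT2 was highest in oligodendrocyte-like cells (166 ± 13.3 CPM) and the severing protein FIGN in fibroblast-like cells (600 ± 125 CPM, n = 5). Of the 55 listed genes found, 16 had their highest mean in ependymal-like and 12 in oligodendrocyte-like cells, over 10 classes. SVBP, TTLL8, ATAT1, TUBA1A and FIGNL1 were not matched by symbol and were not analysed here. FIGN had log2 values of -0.61 ± 0.17 in GABAergic neuron-like cells (adjusted p = 0.205) and -1.10 ± 0.40 in cluster 11 (adjusted p = 0.258). TUBB2B had -1.77 ± 0.41 in cluster 11 (adjusted p = 0.0816), at 7.80 against 2.55 CPM, and was named after its values were seen.

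**Figure D5:**
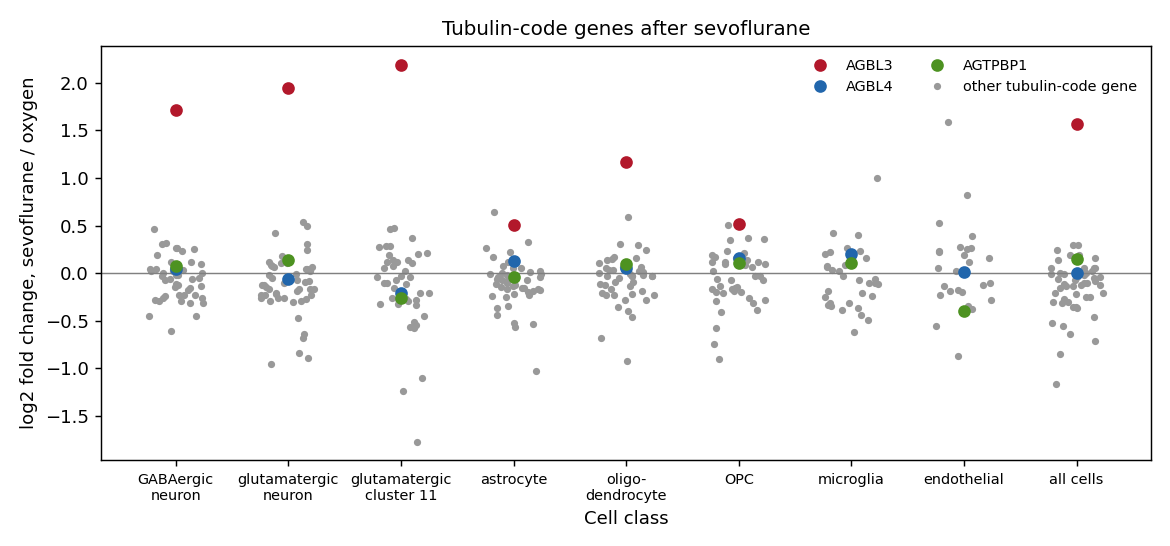
Log2 fold change of sevoflurane over oxygen for every tested gene of the tubulin-code lists, by cell class. AGBL3, AGBL4 and AGTPBP1 are coloured and the other genes are grey, with horizontal scatter that carries no meaning. AGBL3 is the highest point in both neuron classes, cluster 11, oligodendrocyte-like cells, OPC-like cells and all cells, and not in astrocyte-like cells, where KATNAL2 reaches 0.64.

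The genes beside AGBL3 were looked at after its values were seen. Of the 4 nearest protein-coding genes on each side in the RefSeq annotation of assembly calJac240_pri (STRA8, WDR91, CYREN and TMEM140; CALD1, BPGM, AKR1B1 and AKR1B10), 3 were tested in GABAergic neuron-like cells. There WDR91 had a log2 value of 0.51 ± 0.20, the cytoskeletal gene CALD1 -0.37 ± 0.19 and AKR1B10 0.73 ± 0.33, none of them called. In cluster 11 AKR1B10, an aldo-keto reductase, stood at 6.29 against 19.6 CPM (log2 1.60 ± 0.33, adjusted p = 0.0671), while CALD1 next to AGBL3 was at 0.36 ± 0.27. In oligodendrocyte-like cells CALD1 was at -0.06 ± 0.12, WDR91 at 0.04 ± 0.21 and AKR1B10 at 0.85 ± 0.55. In glutamatergic neuron-like cells AKR1B10 was at 0.67 ± 0.31 (adjusted p = 0.679 by edgeR) and STRA8 at -1.36 ± 0.70 (adjusted p = 0.706 by edgeR). WDR91 was there at 0.22 ± 0.20, CALD1 at 0.10 ± 0.31 and BPGM at 0.22 ± 0.53. WDR91 was at 0.44 ± 0.33 in cluster 11. The values of AKR1B10 and WDR91 were thus positive in all 4 classes looked at, and no neighbour was called.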

How the data were processed

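Single-cell RNA was counted in 3 oxygen and 3 sevoflurane libraries. The deposited matrices hold raw UMI counts per gene and barcode, made with Cell Ranger 6.1.1 per the file headers; CASAVA 1.8 and Seurat are named in the submitters' processing notes, and the build is not given in the sources used here. Barcode and gene lists, as deposited, hold no measurement. Barcodes with at least 500 UMIs and 200 genes were kept, doublets were marked with Scrublet at the median of its thresholds over libraries, and cells were clustered (scanpy 1.11.5, 2000 variable genes, 30 components, 15 neighbours, Leiden resolution 1). Clusters were named from marker lists. Of the gene IDs, 15188 had a symbol in the files, 1397 took one from a reference table and 12735 had none.

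UMI counts were summed per library and class, for classes with at least 20 cells in every library, and tested with edgeR 4.0.16 (R 4.3.3; low-count filter, TMM, quasi-likelihood, adjusted p under 0.05 over all genes of the class). DESeq2 1.42.0 was an alternative, and limma 3.58.1 tested differences between classes. Alternatives were size factors, no filter, a replicate block, each library left out, another resolution, clustering without the listed genes, doublets kept and other thinning depths. The code was tested on simulated data.

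The members and gene lists were chosen with earlier results of these data known. Besides the members, the text names the other deglutamylases, each listed gene that was called, the most abundant gene of each role, the 5 genes most alike to each member and FKBP5; other genes are marked as named after their values were seen. Of the glutamatergic marker list, 3 genes are given; the rest are not reported here.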

Additional observations from a re-analysis of the deposited data

Results flagged for a closer look

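A pair of clusters that stayed unnamed, and so entered no comparison of a class (their cells count among all cells), also held AGBL3 above the level of the oxygen libraries. In cluster 7 (1655 cells, median 809 UMIs, HSP90AA1, HPCA and GAPDH among its leading genes) AGBL3 stood at 0, 15.2 and 11.7 CPM under oxygen and at 18.8, 21.1 and 36.1 CPM under sevoflurane, a ratio of means of 2.83. In cluster 25 (656 cells, 383 of them from sevoflurane replicate 3, THEMIS and DCN among its leading genes) it stood at 12.2, 10.8 and 13.3 CPM under oxygen and at 60.2 and 48.7 CPM in sevoflurane replicates 1 and 3, a ratio of 4.50. The cluster 7 values came from 0, 3 and 9 UMIs under oxygen and 7, 5 and 7 UMIs under sevoflurane. Neither difference was tested, and the share of all genes with such an order was not computed in these clusters.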

How the results depend on the processing

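Under every alternative run the AGBL3 difference kept its direction in the 7 comparisons where it was tested, but its call did not hold. In GABAergic neuron-like cells log2 was 1.73 with the replicate block (edgeR adjusted p = 0.204), 1.61 at Leiden resolution 0.5 (0.102) and 1.49 to 1.83 leaving out each library (0.0389 to 0.251, called in 1 of 6). In cluster 11 it was 2.19 with the block (0.0675) and 1.90 to 2.47 leaving out each library (0.00532 to 0.121, called in 1 of 6). It became called with DESeq2 in glutamatergic neuron-like cells (1.94, 2.86e-06) and all cells (1.57, 2.07e-07), and without the low-count filter in oligodendrocyte-like cells (1.16, 0.0419). Over all genes these runs called 185 of 26246, 409 of 27062 and 61 of 22266. Replicate numbers do not pair the samples: correlations of deviations were -0.324 to 0.120.

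AGBL4 changed sign in oligodendrocyte-like (-0.13) and microglia-like cells (-0.0316) with the replicate block, in endothelial-like cells with DESeq2 (-0.00761), without the filter (-0.0389), with the block (-0.0339) and at resolution 0.5 (-0.00782), and in all cells with doublets kept (0.00396). Leaving out each library gave AGBL4 -0.0144 to 0.104 in GABAergic, -0.282 to 0.102 in glutamatergic neuron-like, -0.0135 to 0.237 in astrocyte-like, -0.544 to 0.427 in oligodendrocyte-like, -0.0848 to 0.361 in OPC-like, -0.503 to 0.634 in microglia-like, -0.28 to 0.293 in endothelial-like and -0.181 to 0.127 in all cells. It gave AGTPBP1 -0.034 to 0.213 in glutamatergic neuron-like, -0.252 to 0.139 in astrocyte-like, -0.0702 to 0.316 in oligodendrocyte-like, -0.123 to 0.303 in microglia-like and -0.0364 to 0.235 in all cells. Without the filter edgeR called 2 other listed genes in cluster 11 (TUBB2B and FIGN), among 781 of 21923 genes. It called 1 in endothelial-like cells (TTLL5), among 237 of 18766 genes. DESeq2 called 1 in all cells, among 409 of 27062 genes. Nothing is read from these calls about the list. Under means of log-normalised values 3 of 7 classes kept their rank for each member. The ratio of AGBL3 shares in cluster 11 was 3.79 without thinning and 4.56 at 2000 UMIs. The causes were not tested.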
